A study of Mus musculus with 6 samples.

Results

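The 10 genes described here encode enzymes and a partner protein that make or break down prostaglandins and leukotrienes: Ptgs1, Ptgs2, Ptges, Ptgis, Ptgds, Hpgd, Alox5, Alox5ap, Alox15 and Ltc4s. They were chosen by symbol for this function, and all 10 were matched among the 40842 named genes. Lung RNA was sequenced from wild-type female C57BL/6N mice in 2 groups of 3 libraries. The libraries control 1 to 3 came from mice with no treatment, and irradiated 1 to 3 from mice given 20 Gy of 9 MeV electrons once, all labelled 100 days. The labels name neither the part of the body exposed nor the age of the mice, nor say that each library is its own mouse. The p-values therefore measure only library-to-library spread, which may be technical.

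Prostaglandins and leukotrienes are short-lived lipid signals made from arachidonic acid, which phospholipases release from cell membranes. Cyclooxygenases turn it into a precursor that terminal synthases convert into prostaglandin E, prostaglandin D, prostacyclin or thromboxane, signals known for setting vessel tone, pain, fever and platelet activity. Arachidonate 5-lipoxygenase, the product of Alox5, works with the membrane protein of Alox5ap to make leukotriene A, the source of a neutrophil attractant (leukotriene B) and of the cysteinyl leukotrienes that tighten airways and make vessels leak. The lung is also known as the organ that clears circulating prostaglandins, through the carrier Slco2a1 and the dehydrogenase Hpgd.

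Sequencing depth, inferred from the most common ratio of coverage to FPKM, ranged from 5.11 to 10.4 Gb and was highest in irradiated 2. That ratio held for 35.0 to 37.0% of the named genes used to find it, so most genes depart from it. Levels are given in FPKM, a level scaled for transcript length and library size, so that they can be compared between genes. The surfactant gene Sftpc defines lung alveoli. It was at 14677 to 16828 FPKM in the controls and 8741 to 9588 FPKM in the irradiated libraries (limma adjusted p = 0.0793). The FPKM of all named genes summed to 321039 to 350820 in the controls and 298352 to 312652 in the irradiated libraries. Log2 changes subtract the control mean from the irradiated mean of log2(FPKM + 1), so changes of genes at low levels are understated. A gene was called at a limma adjusted p under 0.05 over the 13908 genes whose mean reached 1 FPKM. In whole lung, fewer cells of a type and less RNA per cell cannot be told apart.

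Irradiated lung had higher values of Ltc4s, the enzyme that makes leukotriene C, in every library, but neither it nor any other of the 10 genes passed the test over all genes. Of the 10 genes 9 entered the test, and Ptgds stayed below the minimum. With limma 0 of the 9 passed, against 0.180% of all genes tested (0.0647% higher and 0.115% lower), and 1 of the 9 (Ltc4s) had an unadjusted p under 0.05, against 17.7% of all genes. The groups did not overlap for 1 of the 9, in the higher direction, against 9.91% of all genes in that direction and 24.5% in either. These counts of 1 in 9 are near or below the shares over all genes, so they do not set the 9 genes apart. The log2 change was above 0 for 6 of the 9, against 44.2% of all genes, and its median was 0.26, against −0.03 over all genes. One of the 6, Alox15, was above 0 by 0.0041 alone.

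**Figure D1:**
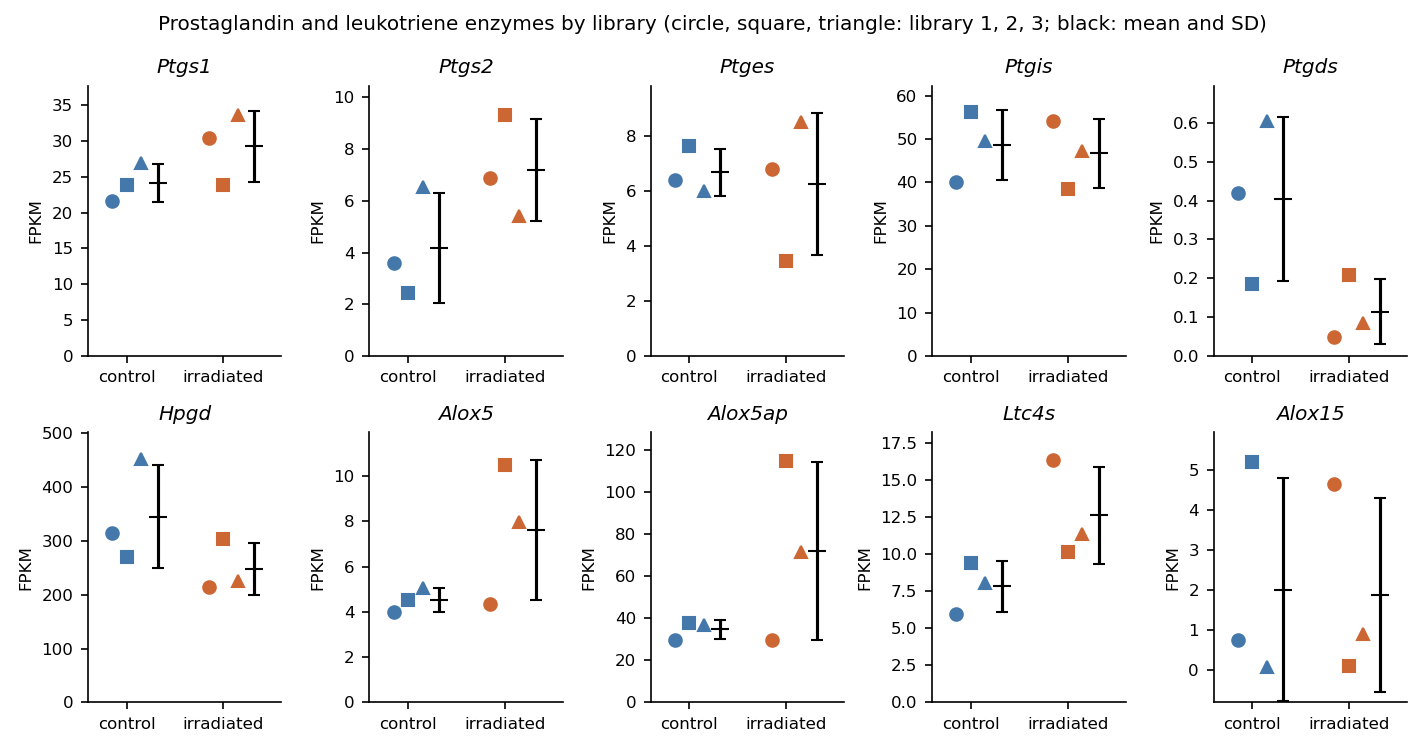
FPKM of the 10 genes in each library (y axis, linear, own scale per gene), with control in blue and irradiated in orange, circles, squares and triangles for libraries 1, 2 and 3, and the mean and SD (n = 3) in black. Ltc4s is the 1 gene whose irradiated libraries (10.2 to 16.3) all lie above the controls (5.99 to 9.44); Alox5 and Alox5ap are high in irradiated 2 and 3 only, and Alox15 is high in 1 library of each group.

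Hpgd had the highest mean over the 6 libraries, 296.8 FPKM, above 99.5% of the genes tested. Alox5ap (53.3), Ptgis (47.6) and Ptgs1 (26.7) followed, and the spread of Alox5ap and Ptgis between libraries overlapped. Ltc4s (10.2), Ptges (6.45), Alox5 (6.07) and Ptgs2 (5.69) formed a lower tier in which the last 3 did not differ beyond their spread. At the level implied by coverage, Ptgs1 was at 9.98 to 15.1 and Ltc4s at 5.68 to 15.2, so their ranges overlapped. Alox15 (1.95) and Ptgds (0.259) were lowest.

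Among the cyclooxygenases, Ptgs1, the form most tissues keep at a steady level, was at 21.7, 23.8 and 26.9 FPKM in the 3 controls (listed in the order 1, 2, 3 here and throughout) and at 30.4, 23.8 and 33.6 FPKM in the irradiated libraries. Irradiated 1 and 3 lay above the controls and irradiated 2 within their range. The group values were 24.1 ± 2.62 and 29.3 ± 4.97 FPKM (SD, n = 3 each), with a log2 change of 0.26 ± 0.14 (SE; limma adjusted p = 0.391). Ptgs1 lies on chromosome 2, 36106758 to 36142287 (GRCm39, plus strand). Its deposited FPKM was 1.93 to 2.23 times the level implied by its deposited coverage, and the reason was not tested. From the coverage alone, a comparison chosen after the data were seen, the controls spanned 9.98 to 12.2 and the irradiated libraries 12.4 to 15.1 on the same scale, with no overlap (log2 change 0.32, limma adjusted p = 0.230).

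Ptgs2, the cyclooxygenase induced in inflammation and the target of many anti-inflammatory drugs, was at 3.58, 2.43 and 6.53 FPKM in the controls and at 6.88, 9.31 and 5.40 FPKM in the irradiated libraries. Control 3 lay above irradiated 3, so the groups overlapped by this pair. The means were 4.18 ± 2.11 and 7.20 ± 1.97 FPKM (n = 3 each), and the log2 change of 0.71 ± 0.31 did not pass (limma adjusted p = 0.295). Without control 2, the library with the lowest Ptgs2, the change was 0.45, and without both control 2 and irradiated 2 it was 0.27. Ptgs2 lies on chromosome 1, 149975782 to 149983985, plus strand. The level of Ptgs2 was 0.102 to 0.243 times that of Ptgs1 in the controls and 0.161 to 0.391 times in the irradiated libraries. From the coverage these ratios were 0.218 to 0.533 and 0.359 to 0.753. The log2 ratio of Ptgs2 to Ptgs1 differed by 0.45 between groups (exact two-sided permutation p = 0.50, n = 3 each; adjusted p = 1 over 5 ratios), in a design whose smallest p is 0.1.

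The terminal synthases of prostaglandin E and prostacyclin had group means close to each other. Ptges, the inducible prostaglandin E synthase (chromosome 2, 30779483 to 30793309, minus strand), was at 6.39, 7.63 and 5.98 FPKM in the controls and at 6.79, 3.43 and 8.49 FPKM in the irradiated libraries. Irradiated 2 was the lowest of all 6 and irradiated 3 the highest. The log2 change was −0.15, with a 95% interval from −0.80 to 0.51 (limma adjusted p = 0.82), and without irradiated 2 it was 0.17.

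Ptgis, the prostacyclin synthase of vessels and stroma (chromosome 2, 167045114 to 167094070, minus strand), was at 40.0, 56.2 and 49.5 FPKM in the controls and at 54.2, 38.5 and 47.2 FPKM in the irradiated libraries. The ranges of the groups were nearly the same. The log2 change was −0.06, with a 95% interval from −0.45 to 0.34 (limma adjusted p = 0.893). Its sign turned without control 2 (0.05), without irradiated 2 (0.07) and when libraries were scaled to a common sum (0.07). The log2 ratio of Ptgis to Ptges was 2.69 ± 0.195 in the controls and 2.78 ± 0.407 in the irradiated libraries (exact two-sided permutation p = 0.90, n = 3 each; adjusted p = 1 over 5 ratios).

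Ptgds, the lipocalin-type prostaglandin D synthase, known from brain membranes and heart, was nearly absent from lung. It was at 0.419, 0.185 and 0.606 FPKM in the controls and at 0.0480, 0.209 and 0.0849 FPKM in the irradiated libraries. Irradiated 1 and 3 lay below every control and irradiated 2 above control 2. On the log2(FPKM + 1) scale the groups differed by −0.32 (exact two-sided permutation p = 0.2, n = 3 each, smallest possible p 0.1). Hpgds, the prostaglandin D synthase of blood cells, was also under the minimum, with control values of 0.446 to 0.841 FPKM and irradiated values of 0.554 to 1.42 FPKM. Ptgds lies on chromosome 2, 25356721 to 25360141, minus strand.

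Of the 6 other prostanoid synthases that were tested, 5 had negative changes and 0 of 6 passed (0 also at an unadjusted p under 0.05), with a median log2 change of −0.17. Akr1b3, an aldose reductase that can make prostaglandin F, had the smallest p of these and was at 55.0 ± 6.30 against 42.6 ± 8.96 FPKM (log2 change −0.38 ± 0.17; limma adjusted p = 0.297). Tbxas1, the thromboxane synthase of platelets and macrophages, was at 3.13, 4.82 and 3.72 FPKM against 5.50, 3.38 and 4.80 FPKM, and was picked with its values known. Of 6 prostanoid receptors tested, 3 had positive and 3 negative changes and 0 passed (2 at an unadjusted p under 0.05). Ptger2, a prostaglandin E receptor that raises cyclic AMP, was at 1.93, 2.00 and 2.10 FPKM in the controls and at 2.57, 2.74 and 2.55 FPKM in the irradiated libraries (limma adjusted p = 0.266). Its irradiated libraries lay above the controls with a narrow spread in both groups. The thromboxane receptor Tbxa2r was at 3.69 ± 0.415 against 2.57 ± 0.714 FPKM and the prostaglandin F receptor Ptgfr at 2.90 ± 0.285 against 2.20 ± 0.278 FPKM.

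On the side of prostaglandin breakdown, Hpgd, the 15-hydroxyprostaglandin dehydrogenase (chromosome 8, 56747587 to 56774081, plus strand), was at 315, 270 and 452 FPKM in the controls and at 215, 304 and 225 FPKM in the irradiated libraries. Irradiated 1 and 3 lay below every control, while irradiated 2 lay between control 2 and control 1. The means were 346 ± 94.9 and 248 ± 49.1 FPKM (n = 3 each), and the log2 change of −0.46 ± 0.22 did not pass (limma adjusted p = 0.340). Without control 3, the library with the highest Hpgd, the change was −0.25, and without control 2 and irradiated 2 together it was −0.78.

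Hpgd was 11.3 to 16.8 times the level of Ptgs1 in the controls and 6.70 to 12.8 times in the irradiated libraries. From the coverage, which gives a lower Ptgs1, these ratios were 24.2 to 36.9 and 14.2 to 24.6. The log2 ratio differed by −0.72 (exact two-sided permutation p = 0.20, n = 3 each; adjusted p = 1 over 5 ratios). Irradiated 1 and 3 had ratios below every control, and irradiated 2 did not. Markers of general capillary cells, which carry Hpgd in lung, had lower sums in irradiated 1 and 3 as well. Of the 7 tested markers other than Hpgd, 6 had negative changes and 1 (Cd93) a positive one. The apelin receptor Aplnr fell past the test, from 15.1 ± 1.44 to 2.46 ± 1.03 FPKM (limma adjusted p = 0.0298). Their summed level was 534, 464 and 630 FPKM in the controls against 359, 463 and 327 FPKM, so irradiated 2 nearly equalled control 2. Without its most abundant gene, Plvap, the list summed to 340, 311 and 397 FPKM against 231, 297 and 218 FPKM. Every irradiated library then lay below the controls. The part of these markers in the Hpgd values was not tested. Of 8 markers of aerocytes, the other capillary cell type, 8 had positive changes and 0 passed (0 also at an unadjusted p under 0.05), with sums of 545 to 613 FPKM in the controls against 630 to 679 FPKM. Without its most abundant gene, Emp2, the aerocyte list summed to 269 to 306 FPKM in the controls and 295 to 345 FPKM in the irradiated libraries, so the groups overlapped.

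Uptake by carriers, export and reduction by further enzymes also remove prostaglandins. Ptgr1, a reductase that inactivates prostaglandins and leukotriene B, had the smallest p of the 4 tested genes for uptake, export and breakdown. It was at 19.1, 13.9 and 15.7 FPKM in the controls and at 11.1, 10.2 and 8.96 FPKM in the irradiated libraries, every one of which lay below the controls (log2 change −0.63 ± 0.14; limma adjusted p = 0.0984). The related Ptgr2 was at 15.8 ± 1.13 against 13.6 ± 1.69 FPKM. Abcc4, which exports prostaglandins from cells, had the 1 positive change of the list, with 2.51 ± 0.349 against 3.13 ± 0.649 FPKM (log2 change 0.23; limma adjusted p = 0.489). Slco2a1, the carrier that brings prostaglandins to Hpgd, picked with its values known, was at 89.3 ± 5.51 against 84.6 ± 5.33 FPKM. Of the 4 genes 0 passed, 3 had negative changes and 1 had an unadjusted p under 0.05.

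**Figure D2:**
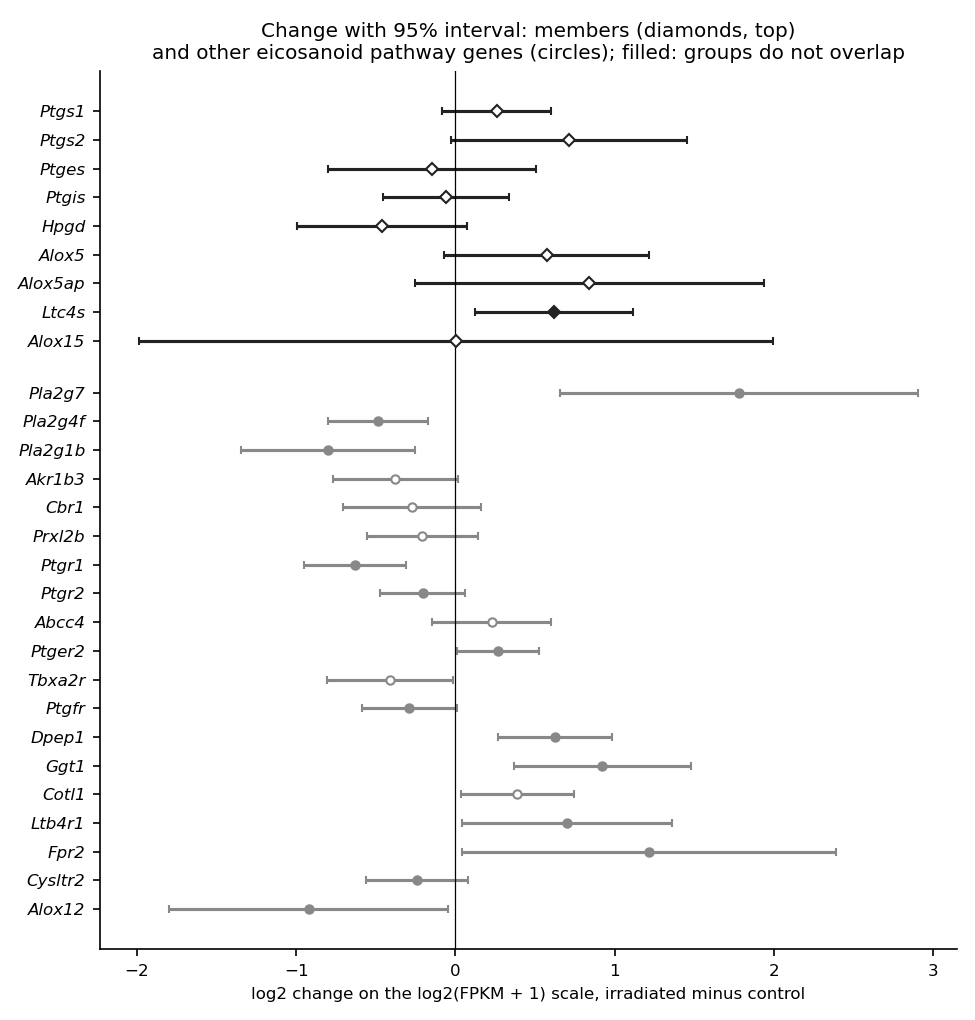
Log2 change on the log2(FPKM + 1) scale (x axis, irradiated minus control) with its 95% interval from limma, for the 9 tested members (diamonds) and the 19 named genes of related lists (circles); filled symbols mark genes whose groups do not overlap. Ltc4s is the 1 member whose interval leaves out 0 (0.12 to 1.12), and none of the 28 genes passed an adjusted p of 0.05.

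The genes that start leukotriene synthesis were high in irradiated 2 and 3 and at the control level in irradiated 1. Alox5 (chromosome 6, 116387030 to 116438139, minus strand) was at 4.01, 4.54 and 5.04 FPKM in the controls and at 4.35, 10.5 and 7.98 FPKM in the irradiated libraries. Alox5ap, whose product presents arachidonic acid to the enzyme (chromosome 5, 149201814 to 149224963, plus strand), was at 29.5, 37.9 and 36.8 FPKM in the controls and at 29.8, 115 and 71.3 FPKM in the irradiated libraries. Both genes had the order irradiated 2, then irradiated 3, then the other 4 libraries. The log2 changes were 0.57 ± 0.27 for Alox5 (limma adjusted p = 0.326) and 0.84 ± 0.45 for Alox5ap (0.388). Without irradiated 1 they were 0.88 and 1.36 (limma adjusted p = 0.0691 and 0.0634), and without irradiated 2 they were 0.33 and 0.41. Alox5 overlaps the predicted gene Gm38880 on the opposite strand, which was at 0.0526 to 0.324 FPKM, and the strand setting is not given in the sources used here.

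Irradiated 2 and 3 were also the 2 highest libraries for 10 of 12 neutrophil markers. The exceptions were Acod1 and G0s2, and G0s2 was lowest in irradiated 2. The same 2 libraries led for 2 of the 10 members and for 2 of 13 monocyte and interstitial macrophage markers. The share over all genes was not counted. Of 12 neutrophil markers, 12 were tested, 11 had positive changes and 0 passed (0 also at an unadjusted p under 0.05). Their summed level was 213, 130 and 593 FPKM in the controls against 262, 4937 and 1502 FPKM, and none of the 12 was listed at 0 in every library. The calprotectin gene S100a8 was at 27.2 to 199 FPKM in the controls and at 75.0, 2029 and 510 FPKM in irradiated 1 to 3. The summed level was higher in control 3 than in irradiated 1, while Alox5 and Alox5ap of control 3 stayed near the other controls. Red cell markers summed to 6286 FPKM in irradiated 2 and to between 1352 and 1715 FPKM in the other 5 libraries. The part of either marker list in the Alox5 and Alox5ap values was not tested.

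Irradiated 2 and 3 were also the 2 highest libraries for 2 receptors of myeloid cells. Ltb4r1, the leukotriene B receptor of neutrophils, was at 1.85, 1.82 and 1.67 FPKM in the controls and at 1.89, 5.31 and 4.08 FPKM in the irradiated libraries (log2 change 0.70 ± 0.28; limma adjusted p = 0.256). Fpr2, the receptor of formyl peptides and lipoxin A, was at 4.34, 5.59 and 6.10 FPKM against 6.46, 29.8 and 12.6 FPKM (1.22 ± 0.49; limma adjusted p = 0.268). Without irradiated 2 the changes were 0.46 for Ltb4r1 and 0.68 for Fpr2. For both genes irradiated 1 lay just above the highest control, and irradiated 2 and 3 far above it. Cyp4f18, which inactivates leukotriene B in neutrophils and was picked with its values known, was at 8.86, 8.16 and 10.3 FPKM against 8.05, 23.3 and 19.4 FPKM. Cotl1, a protein that binds 5-lipoxygenase, was at 28.6 ± 2.23 against 38.1 ± 7.67 FPKM. Of the 5 receptors for leukotrienes, lipoxin and chemerin that were tested, 3 had positive changes and 0 passed (2 at an unadjusted p under 0.05). Cysltr1, the main receptor for leukotriene D, picked with its values known, was at 1.89, 1.97 and 2.17 FPKM against 2.25, 1.46 and 2.33 FPKM, lowest in irradiated 2. Cysltr2, the other cysteinyl leukotriene receptor, was at 1.35 ± 0.205 against 0.985 ± 0.0735 FPKM (limma adjusted p = 0.396).

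**Figure D3:**
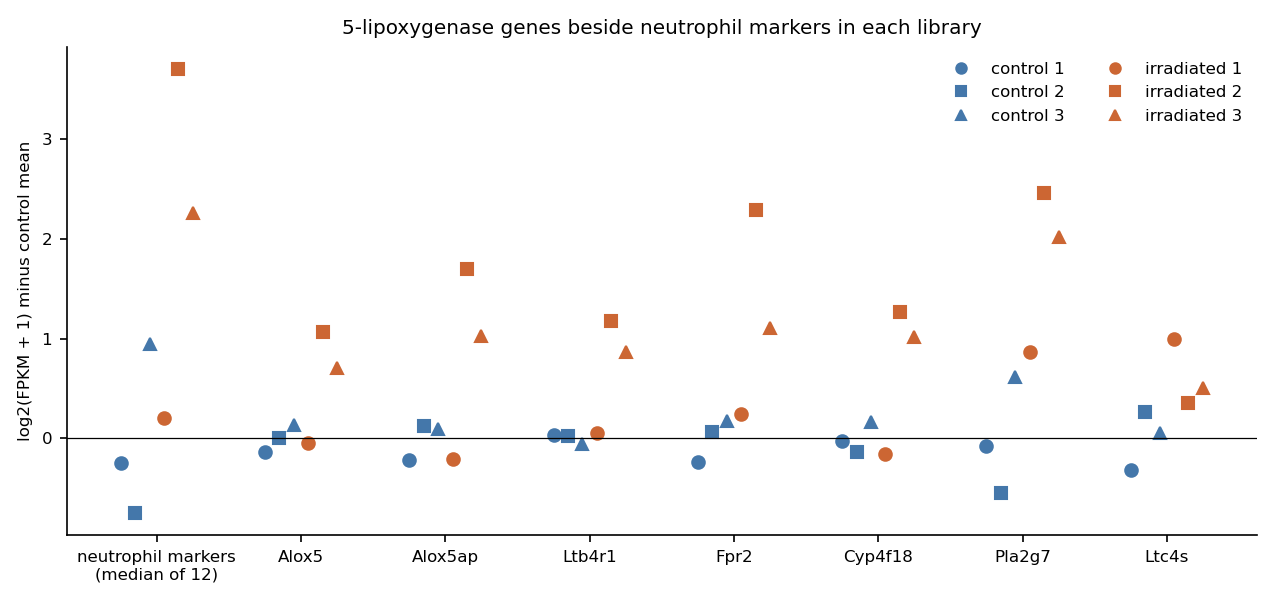
Log2(FPKM + 1) minus the control mean (y axis) in each library for 7 genes, beside the median of 12 neutrophil markers; control in blue, irradiated in orange, circles, squares and triangles for libraries 1, 2 and 3. Irradiated 2 and 3 are the 2 highest libraries for each item except Ltc4s, whose highest library is irradiated 1. The genes shown were picked with their values known.

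Ltc4s, which joins leukotriene A to glutathione (chromosome 11, 50127288 to 50129378, minus strand), had another order. It was at 5.99, 9.44 and 8.06 FPKM in the controls and at 16.3, 10.2 and 11.4 FPKM in the irradiated libraries. Every irradiated library lay above every control, and irradiated 1, the library with control levels of Alox5 and Alox5ap, was the highest. The means were 7.83 ± 1.74 and 12.6 ± 3.28 FPKM (n = 3 each), a ratio of 1.61. The log2 change of 0.62 ± 0.21 had the smallest p of the 9 genes and did not pass (unadjusted p = 0.0220, limma adjusted p = 0.209). Leaving out each library in turn gave changes from 0.43 to 0.75. The log2 ratio of Ltc4s to Alox5 was 1.70, −0.04 and 0.46 in irradiated 1 to 3 and 0.48 to 0.91 in the controls (exact two-sided permutation p = 1, n = 3 each).

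Ltc4s is known from mast cells, eosinophils, basophils and macrophages. Mast cell and basophil markers were near 0: 8 of 10 were under the minimum, the tryptase gene Tpsab1 was listed at 0 in the 3 controls, and the mast cell carboxypeptidase Cpa3 had a mean of 0.724 FPKM in the controls against 0.925 FPKM, with irradiated 1 the highest library. Other markers of that list went the other way: the basophil protease Mcpt8 (0.564 ± 0.137 against 0.243 ± 0.129 FPKM) and the IgE receptor chains Ms4a2 and Fcer1a were lower in every irradiated library. The summed level of that list, nearly all of it Hdc and Gata2, was 61.2 to 65.8 FPKM in the controls and 54.2 to 113.8 FPKM in the irradiated libraries. Of 6 eosinophil markers 5 were under the minimum, and the eosinophil peroxidase gene Epx did not exceed 0.0294 FPKM in any library. The list, most of it Siglecf, summed to 3.44 to 5.27 FPKM in the controls and 3.26 to 4.95 FPKM in the irradiated libraries. Siglecf is also in the alveolar macrophage list. Without Siglecf it summed to 0.361 to 0.942 FPKM in the controls and to 2.01, 0.648 and 0.981 FPKM in irradiated 1 to 3. Epx and Ear6 were higher in every irradiated library, and Il5ra and Siglecf had lower irradiated means. Markers of monocytes and interstitial macrophages had a summed level of 263 to 304 FPKM in the controls and 396 to 431 FPKM in the irradiated libraries. Without the most abundant gene of that list, Lyve1, the sums were closer, at 178 to 200 FPKM and 203 to 267 FPKM. Of the full list of 13 tested markers, 11 had positive changes and 0 passed (5 at an unadjusted p under 0.05). Irradiated 1 was the highest library for 8 of the 13, irradiated 2 for 3 and irradiated 3 for 1. The complement gene C1qb, picked with its values known, was at 15.8 to 22.3 FPKM in the controls and at 41.4, 18.3 and 26.0 FPKM in irradiated 1 to 3, with irradiated 1 highest. The monocyte receptor Ccr2 was at 11.9, 20.2 and 17.7 FPKM in the irradiated libraries, lowest of these in irradiated 1, and Plac8 was lower in every irradiated library. Alveolar macrophage markers, 11 tested with 6 positive changes and 0 passed (5 at an unadjusted p under 0.05), summed to 344 to 480 FPKM in the controls and 458 to 682 FPKM in the irradiated libraries. Without its most abundant gene, Chil3, that list summed to 218 to 306 FPKM and 225 to 310 FPKM. That sum includes Car4, also an aerocyte marker here, at 82.1 to 109 FPKM in the controls and 93.8 to 125 FPKM in the irradiated libraries. The identity markers Marco, Krt79 and Fabp1 were lower in every irradiated library (Marco at 6.56 ± 1.71 against 1.79 ± 1.94 FPKM). Chil3 itself and Mrc1 (9.94 ± 0.603 against 15.6 ± 3.63 FPKM) were higher in every irradiated library. The part of these markers in the Ltc4s values was not tested.

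After Ltc4s, glutamyl transferases and dipeptidases trim leukotriene C to leukotriene D and then E. The glutamyl transferase Ggt1 was at 0.341, 0.164 and 0.763 FPKM in the controls and at 2.43, 1.49 and 1.19 FPKM in the irradiated libraries, with irradiated 1 the highest. The membrane dipeptidase Dpep1 was at 31.0, 31.3 and 44.8 FPKM against 51.5, 56.0 and 57.1 FPKM. Neither gene had overlapping groups and neither passed (log2 change 0.92 ± 0.23, limma adjusted p = 0.132 for Ggt1; 0.62 ± 0.15, limma adjusted p = 0.122 for Dpep1). Ggt1 lies near 1 FPKM, and its change was 1.90 with a pseudocount of 0.1 FPKM and 0.47 from the coverage. The groups overlapped for the other tested enzymes of these steps, Ggt5 (3.11 ± 0.188 against 4.54 ± 1.90 FPKM) and Dpep2 (5.60 ± 0.974 against 6.73 ± 0.982 FPKM), both picked with their values known. Lta4h, which turns leukotriene A into leukotriene B and was picked with its values known, was at 22.6, 23.2 and 21.5 FPKM against 20.5, 17.7 and 21.0 FPKM, with every irradiated library below the controls (log2 change −0.18; limma adjusted p = 0.360). Of the 10 tested genes of this list 7 had positive changes, 0 passed (3 at an unadjusted p under 0.05), and the median log2 change was 0.38.

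Alox15, the mouse 12/15-lipoxygenase of resident serosal macrophages and eosinophils, which makes lipoxin precursors, had the widest spread of the 10 genes. It was at 0.762, 5.19 and 0.0777 FPKM in the controls and at 4.63, 0.101 and 0.913 FPKM in the irradiated libraries. Control 2 and irradiated 1 were high, and the lowest library of each group was under 0.11 FPKM. The group means were 2.01 ± 2.78 and 1.88 ± 2.42 FPKM, and the log2 change was 0.0041 with a 95% interval from −1.99 to 1.99 (limma adjusted p = 0.998). The log2 ratio of Alox15 to Alox5 spanned −2.49 to 0.16 in the controls and −3.39 to 0.08 in the irradiated libraries (exact two-sided permutation p = 0.7, n = 3 each).

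Control 2 and irradiated 1 were also high for some genes of serosal and fat tissue, and control 2 for genes of cardiac muscle. These genes were picked with their values known. Prg4, the lubricin of serosal macrophages and mesothelium, was at 0.503, 2.86 and 0.228 FPKM in the controls and at 3.74, 0.322 and 1.26 FPKM in the irradiated libraries. The adipocyte hormone Adipoq was at 0.891, 31.2 and 1.85 FPKM against 14.2, 0.0235 and 7.23 FPKM. The adipocyte list of 7 markers summed to 18.4, 409 and 38.6 FPKM in the controls and to 181.3, 9.05 and 96.9 FPKM in the irradiated libraries, and the cardiac muscle list of 9 markers to 77.6, 576 and 96.4 FPKM against 205.7, 20.8 and 263.5 FPKM. In both lists control 2 was highest and irradiated 2 lowest. Irradiated 1 lay above irradiated 3 in the adipocyte list and below it in the cardiac list, so the cardiac list did not share the order of Alox15. The pattern was not particular to such tissue, since the airway gene Bpifa1 was at 1.14, 1028 and 2.33 FPKM against 134, 2.38 and 98.8 FPKM. Nor did all serosal markers share it: Gata6 was at 13.2, 12.5 and 10.6 FPKM against 10.1, 8.84 and 11.2 FPKM, and the mesothelium list summed to 230, 410 and 262 FPKM against 217, 131 and 166 FPKM. Their part in the Alox15 values was not tested.

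The gene model of Alox15 in the files spans chromosome 11, 70234973 to 70279465 on the minus strand. In control 1 and irradiated 1 the assembly made from the library itself covered only 70234973 to 70242857 (7885 bases), at 0.695 and 4.54 FPKM, close to the values of the named gene, and control 1 held another assembled span from 70266689 to 70300857, past the end of Alox15, at 4.86 FPKM. In control 3 and irradiated 2 only fragments were assembled at this place. The deposited FPKM of Alox15 was 1.00 to 5.84 times the level implied by its coverage, and the ratio was 5.84 and 5.70 in control 2 and irradiated 1, the 2 libraries with the highest Alox15. From the coverage alone these 2 libraries were at 0.889 and 0.813 on the same scale and the other 4 at 0.0777 to 0.389, so they were the 2 highest on that scale too.

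Alox12, the platelet 12-lipoxygenase, was the 1 tested member of the list of other lipoxygenases. It was at 5.49, 8.78 and 8.80 FPKM in the controls and at 1.56, 5.33 and 4.66 FPKM in the irradiated libraries, all below the controls (log2 change −0.92 ± 0.37; limma adjusted p = 0.263). Without irradiated 1 the change was −0.51. Of 8 platelet and megakaryocyte markers tested, 8 had negative changes and 0 passed (3 at an unadjusted p under 0.05), and their summed level was 74.9 to 128.5 FPKM in the controls and 22.8 to 65.9 FPKM in the irradiated libraries. The platelet chemokine Ppbp was at 31.4, 54.5 and 53.9 FPKM against 4.61, 30.6 and 15.6 FPKM. Irradiated 1 was the lowest library for Alox12, for Ppbp and for the summed list, and the part of the markers in the Alox12 values was not tested. Ptgs1, which platelets also carry, was lowest in control 1, and the part of platelets in its values was not tested.

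**Figure D4:**
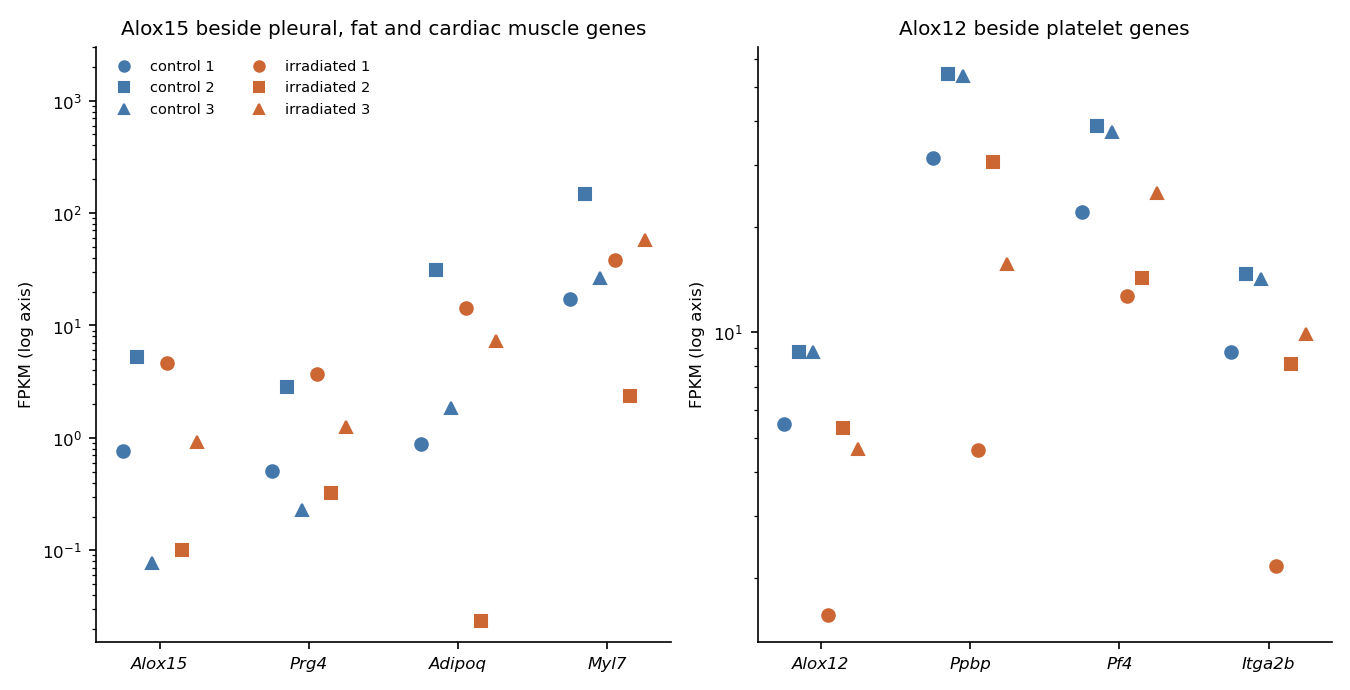
FPKM on a log axis (y) in each library for Alox15 beside Prg4, Adipoq and the cardiac light chain Myl7 (left) and for Alox12 beside the platelet genes Ppbp, Pf4 and Itga2b (right); control in blue, irradiated in orange, circles, squares and triangles for libraries 1, 2 and 3. Control 2 (5.19) and irradiated 1 (4.63) lead for Alox15, and irradiated 1 is lowest for Alox12 (1.56) and for each platelet gene.

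Of the phospholipases A and their activator 9 of 17 were tested, 5 with positive and 4 with negative changes, and 0 passed (4 at an unadjusted p under 0.05). Pla2g4a, the cytosolic phospholipase that frees arachidonic acid for both pathways, was at 6.85, 8.06 and 5.50 FPKM against 8.17, 5.19 and 9.58 FPKM, and was picked with its values known. Pla2g7, which breaks down platelet-activating factor rather than releasing arachidonic acid, was at 4.80, 3.21 and 8.41 FPKM in the controls and at 10.2, 32.8 and 23.7 FPKM in the irradiated libraries. All its irradiated libraries lay above the controls (ratio of means 4.06, log2 change 1.78 ± 0.47; limma adjusted p = 0.149). Its change was 0.94 from the coverage and 1.17 without control 2 and irradiated 2. Pla2g1b, a secreted phospholipase, was at 8.51, 8.77 and 8.77 FPKM against 3.05, 4.34 and 6.95 FPKM, with every irradiated library lower (log2 change −0.80 ± 0.23; limma adjusted p = 0.166). Without irradiated 3 it passed (log2 change −1.06, limma adjusted p = 0.0416). Pla2g4f, a cytosolic phospholipase of epithelia, was at 1.94 ± 0.108 against 1.10 ± 0.198 FPKM, again without overlap (limma adjusted p = 0.153).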

How the data were processed

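Per the labels' protocols, TRIzol-extracted RNA went into mRNA libraries for a DNBSEQ-T7 sequencer. In the submitters' processing notes, GRCm39 is the build and STAR 2.7.6a, fastp and DESeq2 are the tools listed, without their roles. For the tables themselves the tool, annotation and strand setting were not given in the sources used here. The authors deposited 1 table of FPKM per library, here summed per gene ID over named rows. The deposited coverage signal gave the implied depth and an alternative level. TPM was not used, since each library listed assembled loci beside named genes and TPM covered both. No counting interval can be given without counts.

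The 13908 genes whose mean reached 1 FPKM were fitted with limma 3.58.1 in R 4.3.3 on log2(FPKM + 1), with trend and robust variance and the group as the only term, and adjusted by Benjamini-Hochberg. The procedure was run on simulated data whose noise was independent between genes, and its outcome is not used here. Ratios between members and Ptgds were tested by exact permutation of the 6 libraries (20 regroupings). Tables were handled with Python 3.11.15 and pandas 2.3.3. The members, lists and tests were chosen with earlier results of these data known. Named genes are the 10 members and, per related list, up to 3 tested genes with the smallest p. Of these, Cbr1 is given with the alternatives and Prxl2b in a plot. Others were picked with their values known, whether or not this is said beside them. Marker genes are among these others, up to 3 per list. More are named where others went the other way or where a sum leaves out the most abundant gene. Scaling, pseudocount, minimum, variance, block and left-out libraries were varied. Hpgd was left out of the capillary marker list. Of the related genes listed, Ptgr3 had no match. Chromosome numbers come from the symbols' chromosomes in a RefSeq table of GRCm38.p6, and coordinates from the files. Each value is for the whole gene.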

Additional observations from a re-analysis of the deposited data

How the results depend on the processing

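No member passed an adjusted p of 0.05 with limma under any of the 19 alternatives, and the smallest adjusted p among them was 0.0634 (Alox5ap without irradiated 1). Ptgs1, Ptgs2, Hpgd, Alox5, Alox5ap and Ltc4s kept their direction in all 19 alternatives and Ptgds in the 8 run for it. With 1 library left out, Ptges spanned −0.38 to 0.17 and Ptgis −0.19 to 0.0714. Without control 2 and irradiated 2 together Ptges was 0.26 and Ptgis 0.18, and with a common sum Ptgis was 0.0708. Alox15 spanned −0.65 to 0.73 when 1 library was left out. Cbr1, a carbonyl reductase, went from −0.27 to 0.0191 without the pair. Among ratios, Ptgs2 to Ptgs1 went to −0.12, Ptgis to Ptges to −0.0786 and Alox15 to Alox5 to 0.92 without the pair. With 1 library left out, Ptgis to Ptges spanned −0.10 to 0.30, Alox15 to Alox5 −1.53 to 0.20 and Ltc4s to Alox5 −0.45 to 0.42. Without irradiated 2, Akr1b3 was −0.22, Ptgr2 −0.11 and Cotl1 0.24. Causes were not tested.

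Over all genes 25 passed (9 higher, 16 lower). The count was 0 with no minimum above 0 (3531 at an unadjusted p under 0.05), 38 with a minimum of 5 FPKM, 13 with a common sum (7 higher, 6 lower), 11 with median-ratio scaling, 15 from coverage, 9 without control 2 and irradiated 2 together (9 higher), and 0 with the replicate number as a block (1623 at an unadjusted p under 0.05). Leaving out 1 library gave 0 to 118. The common sum moved the median change of all genes from −0.03 to 0.08. Libraries with the same replicate number did not deviate together over all genes (correlations −0.17, −0.54 and −0.28). Whether the number marks a shared batch was not tested. Alternatives on coverage were chosen after the data were seen. Depth was lowest in irradiated 3 (5.11 Gb), and how far it limits genes under 1 FPKM such as Ptgds was not tested.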
